A study of Mus musculus with 5 samples.

Results

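The 36 genes described here encode the enzymes of glycolysis, the carriers that bring glucose in and lactate out, the oxygen-regulated factor HIF1A with its prolyl hydroxylases EGLN1 and EGLN3, and genes known to be switched on in low oxygen. They were found as the rows of the deposited table whose gene name is one of 36 listed symbols. All 36 were present, among 27179 rows of which 25873 carry a gene name, and all 36 had a mean of at least 1 RPKM (reads scaled by gene length and by library depth), as did 11543 genes in all. The RNA came from tdTomato-positive cells sorted from limb muscle of C57BL/6J mouse fetuses at embryonic day E16.5. The Notch2 conditional knockout (Notch2 cKO; Pax7-CreER, Notch2 f/f and Rosa-tdTomato) had 2 libraries, tagged Em3 and Em4 in the table, and the Notch1 conditional knockout (Notch1 cKO; Pax7-CreER, Notch1 f/f and Rosa-tdTomato) had 1, tagged Em8. The wild type (WT; Pax7-CreER and Rosa-tdTomato, with neither floxed allele) had 2, tagged Em2 and Em4. Every group therefore carried the Cre driver and the reporter, and in every group the pregnant female was given oral tamoxifen at 240 mg per kg of body weight for 2 days from E12.5. The recombinase is made where Pax7 is expressed, so recombination is set by the progenitors that used Pax7 at that time, and the sorted cells are those progenitors and their descendants. The labels do not say whether libraries of a group came from separate fetuses or litters. The p-values thus measure only the spread between these libraries, which may be technical, and the lone Notch1 cKO library is assumed to vary like the others.

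Glycolysis splits glucose into pyruvate in the cytosol and yields ATP without oxygen, and lactate dehydrogenase turns pyruvate into lactate when it is not passed to mitochondria. When oxygen is plentiful, EGLN prolyl hydroxylases mark HIF1A for destruction, and when oxygen is scarce the stabilised factor binds DNA at a short core sequence and raises the transcription of glycolytic enzymes, glucose carriers, vascular growth factors and mitochondrial regulators. Skeletal muscle has its own isoforms for several glycolytic steps, such as PFKM, PGAM2 and ENO3, which accumulate as myoblasts become fibres.

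The library totals implied by the RPKM values ran from 20740258 to 28827897 reads. Myog, a transcription factor of differentiating myoblasts, had 1655 and 1737 RPKM in Notch2 cKO, 944 RPKM in Notch1 cKO, and 1053 and 1272 RPKM in WT. All 9 markers of the myogenic lineage were detected in all 5 libraries, and they did not move together. Their log2 fold changes ran from -0.61 to 0.55 in Notch2 cKO against WT (median 0.21, 7 above 0). In Notch1 cKO against WT they ran from -0.64 to 0.28 (median -0.26, 2 above 0). Of the targeted genes, Notch1 had 2.33 RPKM in Notch1 cKO Em8 against 7.26 and 13.5 RPKM in WT, and fell by 1.72 on the log2(RPKM + 1) scale (SE 0.39, limma adjusted p = 0.0443), a call lost when WT Em4 (adjusted p = 0.746) or either library of Notch2 cKO (Em3 0.116, Em4 0.12) was left out. In libraries labelled Notch2 cKO, Notch2 itself had 3.35 and 2.03 RPKM, against 2.40 and 4.17 RPKM in WT. A gene-level value pools all exons, so Notch2 checks the label in neither direction. Markers of other cells differed between libraries, although the sort kept lineage-negative cells, with antibodies to the endothelial CD31, the leukocyte CD45 and the erythroid Ter119 among its stains. The summed RPKM of 14 tendon and cartilage genes was 55.2 in Notch2 cKO Em3 but 222 in Notch2 cKO Em4, with 71.6 in Notch1 cKO, and 52.4 and 76.4 in WT. The sum of 10 erythroid genes was 522 and 450 in Notch2 cKO, 1750 in Notch1 cKO, and 981 and 1224 in WT, and that of 12 fibroblast genes was 272 and 437 in Notch2 cKO, 421 in Notch1 cKO, and 166 and 301 in WT. Of 12 dissociation and heat shock genes, 2 rose in Notch2 cKO against WT (median 0.64), with a sum of 3216 RPKM in Notch2 cKO Em3 and between 1645 and 2412 RPKM in the other libraries. In the same comparison 2 of 5 adipocyte genes rose (median 0.87), as did 1 of 23 sarcomere genes (median 0.41, with 9 at an unadjusted p under 0.05). Of the 6 erythroid genes tested, 3 fell (median -1.10, with 5 at an unadjusted p under 0.05). Of all genes tested, 0.355% were called higher and 0.182% lower, and 7.63% had an unadjusted p under 0.05. Named rows listed at 0 made up 12.7% and 24.5% in Notch2 cKO, 26.9% in Notch1 cKO, and 31.7% and 31.3% in WT, so Notch2 cKO Em3 stood apart. The part of these differences in the results below was not tested. In bulk RNA of this kind, fewer cells of a type and less RNA per cell cannot be told apart. Digits in the column names are shared by Notch2 cKO Em3 and Notch1 cKO Em8, and by Notch2 cKO Em4 and WT Em4, while those of WT Em2 match no other library and lack 1 digit of the Em4 libraries' digits. In the fit with the digits as a term, WT Em2 was read as sharing the digits of the Em4 libraries. The sources used here do not say what these digits mean.

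Promoter sequences were read for ACGTG, a form of the core of the hypoxia response element, or CACGT on the other strand. The form that starts with G, GCGTG, was not searched, so windows without a match may still hold it. RefSeq windows (GRCm38.p6, from 250 bases before to 50 bases after a gene's start) were given for 32 of the 36 genes. The letters stood in at least 1 window of 22 of these genes, or 68.8%, against 21.8% of the 27025 genes that have a window. By window, 24 of 45 (53.3%) held them, against 19.6% of all 32851 windows. A match is a description of the letters and not evidence of binding. The 250 bases before the start are shown for Bnip3 and Slc2a1, which had unadjusted p under 0.05 against both Notch1 cKO and WT, and for Ldha, the most abundant of the 36, with each match in capitals. The Bnip3 window is chr7:138909507-138909756 on the minus strand, the Slc2a1 window chr4:119108495-119108744 on the plus strand, and the Ldha window chr7:46845554-46845803 on the plus strand.
Bnip3 promoter: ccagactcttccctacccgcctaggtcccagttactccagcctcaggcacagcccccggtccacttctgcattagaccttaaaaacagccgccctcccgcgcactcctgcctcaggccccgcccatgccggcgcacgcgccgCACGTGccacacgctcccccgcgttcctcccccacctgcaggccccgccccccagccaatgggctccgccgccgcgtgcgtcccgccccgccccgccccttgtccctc
Slc2a1 promoter: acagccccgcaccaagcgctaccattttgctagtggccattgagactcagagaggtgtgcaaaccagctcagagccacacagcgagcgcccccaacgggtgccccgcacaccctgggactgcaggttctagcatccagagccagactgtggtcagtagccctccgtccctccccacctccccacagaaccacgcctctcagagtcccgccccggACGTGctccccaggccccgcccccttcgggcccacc
Ldha promoter: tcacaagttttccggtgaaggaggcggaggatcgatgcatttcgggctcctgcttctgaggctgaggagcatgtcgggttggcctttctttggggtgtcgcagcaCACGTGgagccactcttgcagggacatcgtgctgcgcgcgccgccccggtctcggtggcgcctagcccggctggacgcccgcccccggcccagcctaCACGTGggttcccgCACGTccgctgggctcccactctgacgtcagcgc
The Bnip3 window holds the palindrome CACGTG, which counts once on each strand and so gives 2 matches. The Ldha window shown has 5 matches, and that of Slc2a1 has 1. Ldha has another window, with 0 matches, and the one with the most matches is shown. No match to ACGTG or CACGT was found in the windows of Adm, Pdk1 and Pgam2.

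Ndufa4l2 was the only one of the 36 genes that passed the test in any comparison. It encodes a homologue of the NDUFA4 subunit of the respiratory chain and is a HIF1A target that lowers mitochondrial respiration in low oxygen (ENSMUSG00000040280.10, GRCm38 chromosome 10, 127514967 to 127517154, plus strand). It had 16.7 and 35.4 RPKM in Notch2 cKO (Em3, then Em4), 71.9 RPKM in Notch1 cKO, and 15.5 and 18.1 RPKM in WT (Em2, then Em4), an order of libraries kept throughout. The Notch1 cKO library stood above every other library, while the Notch2 cKO and WT ranges overlapped. These values rest on 334 and 983 reads in Notch2 cKO, 1767 in Notch1 cKO, and 365 and 399 in WT. Ndufa4l2 rose in Notch1 cKO against WT by 2.03 on the log2(RPKM + 1) scale (SE 0.35, limma adjusted p = 0.000183), and the ratio of mean RPKM was 4.27. In Notch2 cKO against Notch1 cKO it fell by 1.52 (SE 0.35, limma adjusted p = 0.0148), while Notch2 cKO against WT gave a log2 fold change of 0.51 (SE 0.28, limma adjusted p = 0.699). Both called comparisons share the single Notch1 cKO library. The Notch1 cKO call against WT was lost without WT Em2 (log2 fold change 1.93, adjusted p = 0.0913) and without WT Em4 (2.14, adjusted p = 0.0505), with a fold change close to that over all libraries. The Notch2 cKO call against Notch1 cKO was lost without Notch2 cKO Em3, where the fold change was -1.0 (adjusted p = 0.404). Between the libraries that share digits, Notch2 cKO Em3 minus Notch1 cKO Em8 was -2.04, and no WT library shares digits with Notch1 cKO Em8.

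In GENCODE M21, 15 of the 36 genes share exonic bases with another annotated gene, so that reads may be shared, and these include Bnip3 (22.3% of its exonic bases, with Gm45507) and Slc2a1 (2.99%, with Gm12868), both on the opposite strand. Ndufa4l2 shares 32 of 1095 exonic bases with Shmt2, on the opposite strand, and the sources used here do not say whether the counting used strand. Shmt2, a mitochondrial serine enzyme, had 61.7 and 80.0 RPKM in Notch2 cKO, 56.4 RPKM in Notch1 cKO, and 43.7 and 68.7 RPKM in WT. The part of shared reads in the Ndufa4l2 value was not tested. Ndufa4l2 is also known from pericytes. Of 10 pericyte and smooth muscle genes, Rgs5, Pdgfrb, Kcnj8, Abcc9, Higd1b, Cox4i2 and Myh11 were below 1 RPKM in every library, with Rgs5 at 0.346 and 0.326 RPKM in Notch2 cKO, 0.281 in Notch1 cKO, and 0.158 and 0.0967 in WT. The list's summed RPKM was 527 and 540 in Notch2 cKO, 476 in Notch1 cKO, and 392 and 374 in WT. The 3 of these 10 genes that were tested were Cspg4, Notch3 and Acta2, which made up nearly all of that sum. A median over them leaves out the genes named above as below 1 RPKM. Relative to all genes it was -0.26 and -0.30 in Notch2 cKO, 0.50 in Notch1 cKO, and -0.15 and 0.10 in WT. By this measure of the 3 tested genes the Notch1 cKO library was highest, while by the sum it was not. All 3 had log2 fold changes above 0 in Notch1 cKO against WT (median 0.42), and none passed. The erythroid sum given above was highest in Notch1 cKO Em8, and the fibroblast sum there was below only that of Notch2 cKO Em4. In Notch1 cKO against WT all 10 tested fibroblast genes were above 0 (median 0.94), against 51.5% of all genes (median 0.01). So were 5 of 6 tested erythroid genes (median 0.62), but only 4 of 12 tendon and cartilage genes (median -0.49). The part of any of these lists in the Ndufa4l2 value was not tested.

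Notch2 cKO was compared with WT to ask what losing Notch2 in the Pax7 lineage does to these genes. Of the 36 genes, 0 passed the limma test as higher, against 0.355% of all 11543 genes tested, and 0 as lower, against 0.182%, out of 62 genes called (0.537%). At an unadjusted p under 0.05 there were 5 (13.9% of the 36), against 881 genes (7.63%), and all 5 were higher. In all, 29 genes lay above 0 in log2 fold change (80.6%, against 68.1% of all genes tested), and the median over the 36 was 0.27 against 0.14 for all genes. Scaling moved this count, to 22 with median-of-ratios scaling (all genes then had a median of -0.00), 33 after rescaling to the same summed RPKM (all genes then had a median of 0.28) and 20 with a trend on gene length removed. In 15 genes both Notch2 cKO libraries stood above both WT libraries (41.7%, against 28.3% of all genes), and in 0 genes both stood below (against 9.44%). Limma voom on reads recovered from the RPKM values also called 0 of the 36.

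Notch2 cKO Em4 held the highest value of 22 of the 36 genes, against 33.3% of all genes tested, and Notch2 cKO Em3 of 3, against 25.4% of all genes tested. WT Em2 held the lowest value of 19 of the 36. Between the 2 Notch2 cKO libraries, Em3 was above Em4 for 6 of the 36 genes, with a median difference of -0.23 against 0.01 for all genes. Relative to all genes the median of the 36 was -0.08 and 0.19 in Notch2 cKO Em3 and Em4, and -0.03 and -0.05 in WT Em2 and Em4. With all libraries the median of the 36 minus that of all genes was 0.127. It was -0.036 when Notch2 cKO Em4 was left out and 0.263 when Notch2 cKO Em3 was. Leaving out WT Em2 gave 0.103, with a median of 0.133 for the 36 and 0.031 for all genes, and leaving out WT Em4 gave 0.105. Notch2 cKO Em4 is also the library with the high tendon and cartilage sum, and its part in the result was not tested.

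**Figure D1:**
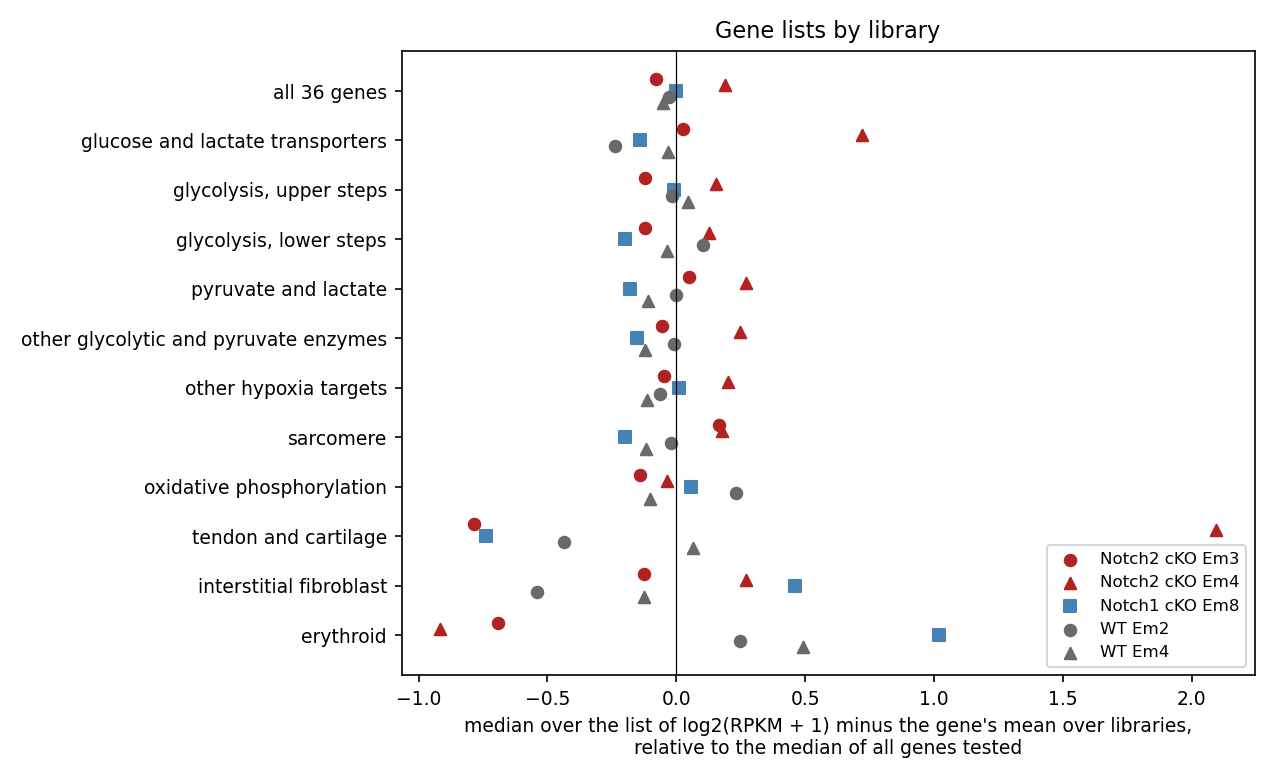
Each point is 1 library's median, over the genes of a list, of log2(RPKM + 1) minus the gene's mean over libraries, relative to the median of all genes tested (x axis, log2 units). For all 36 genes Notch2 cKO Em4 sits at 0.19 and the other libraries between -0.08 and 0.00, and for tendon and cartilage genes Notch2 cKO Em4 sits at 2.09.

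The 5 genes with an unadjusted p under 0.05 in Notch2 cKO against WT fall into 5 different roles. Bnip3, a mitochondrial receptor for mitophagy and a HIF1A target (ENSMUSG00000078566.8, GRCm38 chromosome 7, 138890836 to 138909519, minus strand), had 29.7 and 46.0 RPKM in Notch2 cKO, 19.3 RPKM in Notch1 cKO, and 22.4 and 15.8 RPKM in WT. Both Notch2 cKO libraries stood above the other 3, and the log2 fold change against WT was 0.94 (SE 0.28, limma adjusted p = 0.129). Adm, which encodes the vasodilator peptide adrenomedullin (ENSMUSG00000030790.15, chromosome 7, 110627661 to 110629820, plus strand), had 6.35 and 3.94 RPKM in Notch2 cKO, 3.83 RPKM in Notch1 cKO, and 1.81 and 2.19 RPKM in WT. The WT libraries were the lowest, on 61 and 69 reads, and the log2 fold change was 1.01 (SE 0.32, limma adjusted p = 0.187). Adm was the one gene of these 5 with its highest value in Notch2 cKO Em3.

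Slc2a1, the glucose carrier GLUT1 (ENSMUSG00000028645.11, chromosome 4, 119108711 to 119137983, plus strand), had 11.2 and 17.8 RPKM in Notch2 cKO, 6.57 RPKM in Notch1 cKO, and 5.95 and 9.45 RPKM in WT. Both Notch2 cKO libraries were above the other 3, with a log2 fold change against WT of 0.83 (SE 0.31, limma adjusted p = 0.410). Pdk1, the kinase that switches off pyruvate dehydrogenase (ENSMUSG00000006494.11, chromosome 2, 71873224 to 71903858, plus strand), had 6.49 and 8.67 RPKM in Notch2 cKO, 5.77 RPKM in Notch1 cKO, and 3.57 and 4.42 RPKM in WT. The 3 knockout libraries were above both WT libraries, with a log2 fold change of 0.77 for Notch2 cKO against WT (SE 0.32, limma adjusted p = 0.512). Pgam2, the muscle phosphoglycerate mutase (ENSMUSG00000020475.3, chromosome 11, 5801640 to 5803733, minus strand), had 56.6 and 65.8 RPKM in Notch2 cKO, 40.9 RPKM in Notch1 cKO, and 39.5 and 43.7 RPKM in WT. It was highest in Notch2 cKO, with a log2 fold change against WT of 0.54 (SE 0.26, limma adjusted p = 0.639). In the pair that shares digits, Notch2 cKO Em4 minus WT Em4, the differences were 1.48 for Bnip3, 0.63 for Adm, 0.85 for Slc2a1, 0.84 for Pdk1 and 0.58 for Pgam2.

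**Figure D2:**
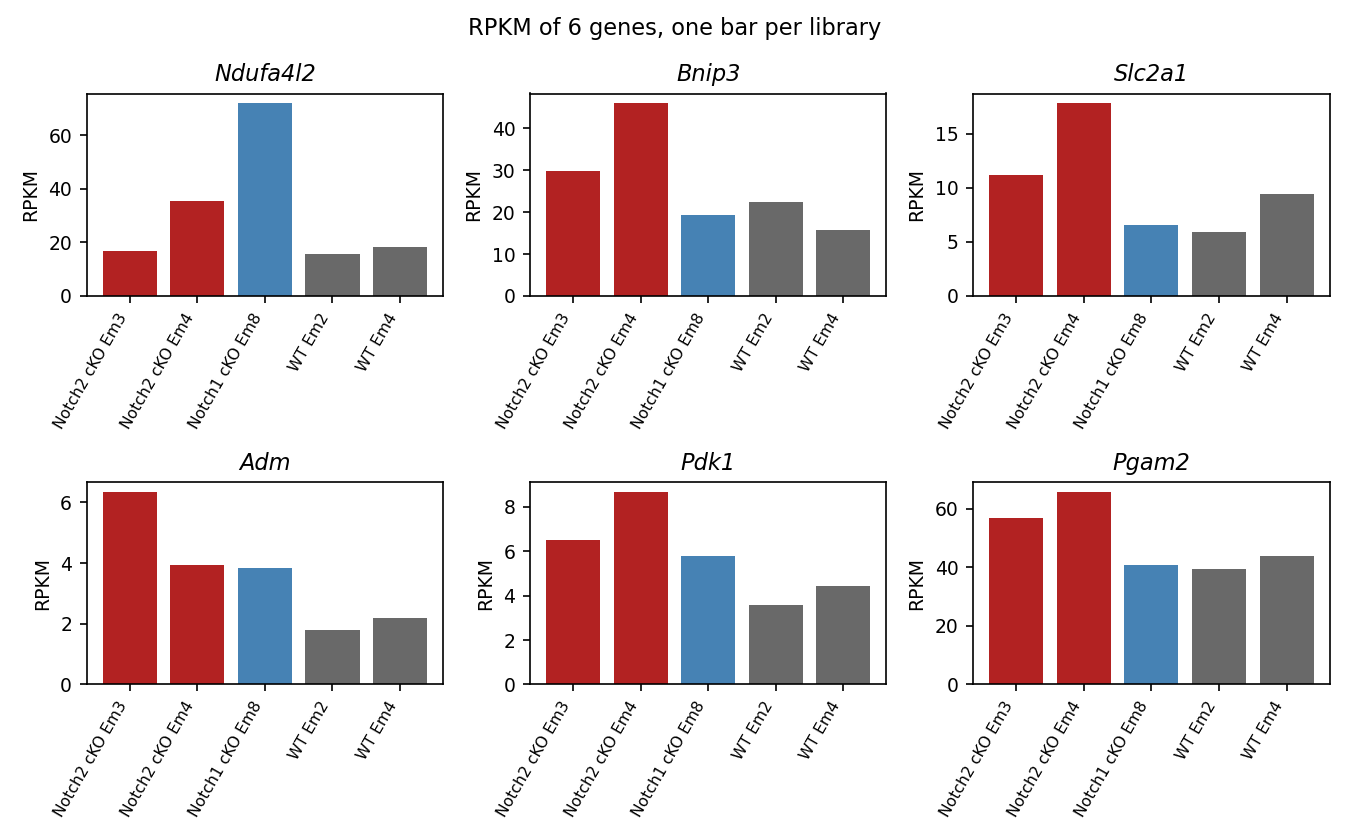
Bars give the RPKM of Ndufa4l2 and of the 5 genes with an unadjusted p under 0.05 in Notch2 cKO against WT, 1 bar per library, with Notch2 cKO in red, Notch1 cKO in blue and WT in grey. Ndufa4l2 is highest in Notch1 cKO Em8 at 71.9 RPKM, and the other genes are highest in a Notch2 cKO library.

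Among the oxygen sensors, Hif1a had 24.5 and 34.5 RPKM in Notch2 cKO, 19.2 RPKM in Notch1 cKO, and 20.9 and 21 RPKM in WT. Both Notch2 cKO libraries were above the rest, although the log2 fold change against WT of 0.46 did not pass (SE 0.28, limma adjusted p = 0.734). Egln3, a prolyl hydroxylase that HIF1A itself induces, had 5.53 and 5.70 RPKM in Notch2 cKO, 3.67 RPKM in Notch1 cKO, and 3.31 and 3.40 RPKM in WT, with tight replicates and a log2 fold change against WT of 0.60 (SE 0.32, limma adjusted p = 0.695). Egln1, the main hydroxylase that marks HIF1A, lay between 21.4 and 27.2 RPKM in all 5 libraries, with groups that overlapped. HIF1A is regulated mostly as a protein, which RNA does not measure.

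Of the other carriers, Slc2a3, the glucose carrier GLUT3, had 1.32 and 1.59 RPKM in Notch2 cKO, 0.979 RPKM in Notch1 cKO, and 0.797 and 1.16 RPKM in WT. Slc16a3, the lactate exporter MCT4, had 3.35 and 7.61 RPKM in Notch2 cKO, 3.42 RPKM in Notch1 cKO, and 2.77 and 4.01 RPKM in WT. For Slc16a3 a single library, Notch2 cKO Em4, stood apart, and the Notch2 cKO and WT ranges overlapped.

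The upper steps of glycolysis, from hexokinase to triose-phosphate isomerase, had a median log2 fold change of 0.17 over 9 genes in Notch2 cKO against WT. All genes tested had a median of 0.14. Of the 9 genes 7 were above 0, against 68.1% of all genes, and none passed. With the length trend removed the median was -0.01, against 0.00 for all genes. Hk1 had 6.76 and 10.6 RPKM in Notch2 cKO, 7.66 RPKM in Notch1 cKO, and 4.32 and 8.05 RPKM in WT. Its partner Hk2, the hexokinase HIF1A induces, had 7.36 and 5.15 RPKM in Notch2 cKO, 6.29 RPKM in Notch1 cKO, and 6.75 and 6.21 RPKM in WT, so Hk2 was lowest where Hk1 was highest. Of the phosphofructokinases, which set the committed step, the liver-type Pfkl had 30.2 and 48.7 RPKM in Notch2 cKO, 27.0 RPKM in Notch1 cKO, and 22.7 and 39.8 RPKM in WT. The Em4 library of either group was higher than its partner for Pfkl. The muscle-type Pfkm lay between 6.17 and 12.1 RPKM and the platelet-type Pfkp between 1.66 and 3.48 RPKM, both lowest in WT Em2. Gpi1, the glucose-phosphate isomerase, had 112 and 119 RPKM in Notch2 cKO, 90.2 RPKM in Notch1 cKO, and 90.0 and 105 RPKM in WT. The Notch2 cKO libraries were above the rest for Gpi1, as they were for the aldolase Aldoa, at 815 and 900 RPKM in Notch2 cKO, 702 RPKM in Notch1 cKO, and 746 and 778 RPKM in WT. The brain-type Aldoc was near 1 RPKM, between 0.920 and 1.77, on 38 to 87 reads. Tpi1, triose-phosphate isomerase, was among the steadiest, between 565 and 646 RPKM.

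The lower steps, from glyceraldehyde-phosphate dehydrogenase to pyruvate kinase, had a median of 0.08 over 7 genes, below the 0.14 of all genes. Of the 7 genes 4 were above 0, against 68.1% of all genes, and none passed. With the length trend removed the median was -0.05, against 0.00 for all genes. Pgk1, phosphoglycerate kinase, varied least of the 36, from 57.5 to 63.1 RPKM. Pkm, pyruvate kinase, had 618 and 726 RPKM in Notch2 cKO, 475 RPKM in Notch1 cKO, and 489 and 596 RPKM in WT, with both Notch2 cKO libraries on top. Pgam1, the widely expressed mutase, had 71.5 and 108 RPKM in Notch2 cKO, 59.5 RPKM in Notch1 cKO, and 70.3 and 97.5 RPKM in WT. Eno3, the muscle enolase, lay between 27.8 and 36.1 RPKM. Eno1, the main enolase, had 396 and 463 RPKM in Notch2 cKO, 321 RPKM in Notch1 cKO, and 469 and 406 RPKM in WT, and Gapdh had 167 and 156 RPKM in Notch2 cKO, 190 RPKM in Notch1 cKO, and 235 and 147 RPKM in WT. Both have near-identical copies with rows of their own, so their reads may be split. Eno1b had 646 and 809 RPKM in Notch2 cKO, 566 RPKM in Notch1 cKO, and 598 and 668 RPKM in WT, above Eno1 itself in every library. With copies added, a choice made after seeing the values, Gapdh had 269 and 272 RPKM in Notch2 cKO, 282 RPKM in Notch1 cKO, and 317 and 247 RPKM in WT.

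At the end of the pathway, Ldha, which makes lactate, was the most abundant of the 36, at 1090 and 1317 RPKM in Notch2 cKO, 888 RPKM in Notch1 cKO, and 988 and 992 RPKM in WT. The Notch2 cKO libraries were highest, and the log2 fold change against WT was 0.28 (SE 0.33, limma adjusted p = 0.866). Ldhb, the heart-type subunit, had 15.8 and 17.7 RPKM in Notch2 cKO, 12.3 RPKM in Notch1 cKO, and 12.7 and 14.2 RPKM in WT, in the same order of groups.

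Among the remaining hypoxia targets, Bnip3l, the mitophagy receptor NIX, was nearly level, between 39.6 and 43.9 RPKM, in contrast to Bnip3. It also has a copy, Bnip3l-ps, between 42.3 and 71.4 RPKM. Higd1a, a mitochondrial protein that associates with the respiratory chain, had 70.9 and 73.3 RPKM in Notch2 cKO, 84.7 RPKM in Notch1 cKO, and 104 and 66.3 RPKM in WT. Vegfa, the vascular growth factor, had 15.2 and 13.1 RPKM in Notch2 cKO, 19.0 RPKM in Notch1 cKO, and 10.7 and 16.6 RPKM in WT. Vegfa was thus highest in the Notch1 cKO library, and the Notch2 cKO and WT ranges overlapped. P4ha1, a collagen prolyl hydroxylase subunit, lay between 36.3 and 58.0 RPKM, and P4ha2 had 9.26 and 15.4 RPKM in Notch2 cKO, 13.1 RPKM in Notch1 cKO, and 7.78 and 10.4 RPKM in WT. Ankrd37, a HIF1A target of little-known function, had 9.97 and 9.06 RPKM in Notch2 cKO, 10.2 RPKM in Notch1 cKO, and 7.97 and 5.42 RPKM in WT, all knockout libraries being above WT. Ndrg1, a stress-induced gene, had 28.1 and 33.5 RPKM in Notch2 cKO, 40.9 RPKM in Notch1 cKO, and 25.9 and 32.1 RPKM in WT. Ddit4, the mTORC1 inhibitor REDD1, was low, between 1.34 and 2.47 RPKM.

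**Figure D3:**
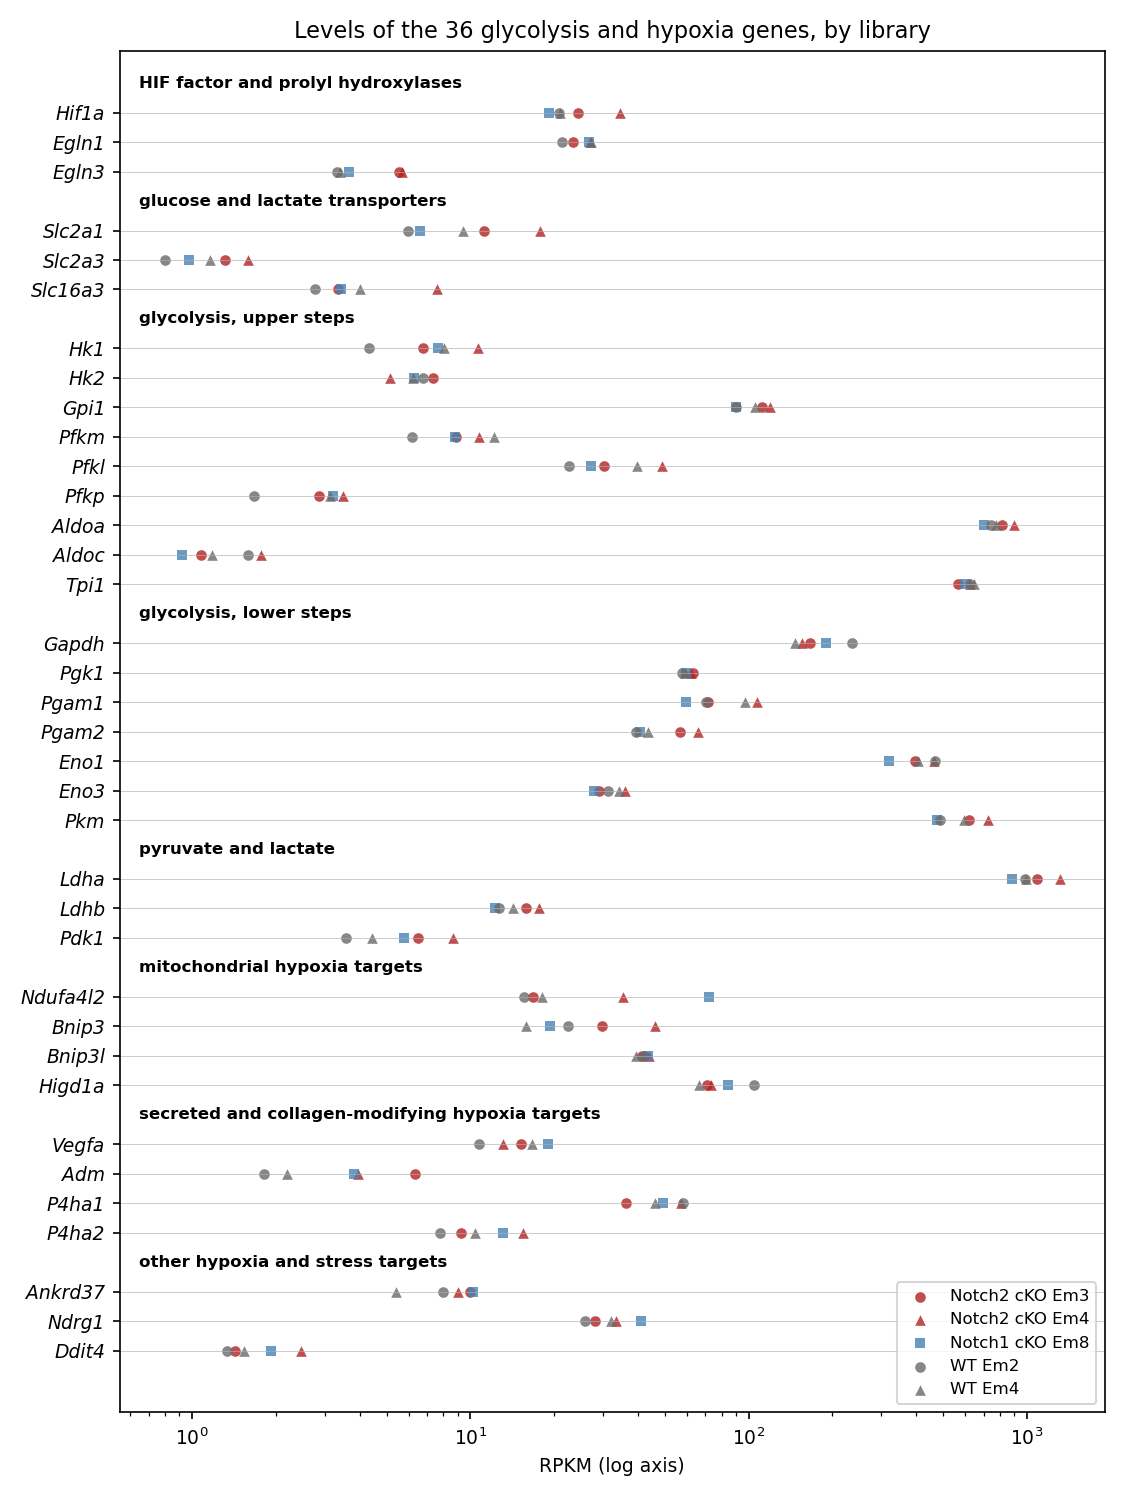
Each point is 1 gene's RPKM in 1 library (x axis, log scale), with genes grouped by role down the page and Notch2 cKO in red, Notch1 cKO in blue and WT in grey. Levels span from 0.797 RPKM for Slc2a3 to 1317 RPKM for Ldha, and for most genes the 5 points lie close together relative to that span.

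In Notch1 cKO against WT, 1 of the 36 genes passed, Ndufa4l2, and it was higher, against 0.0433% of all genes. As lower, 0 passed, against 0.026%, out of 8 genes called (0.0693%). The fold changes were split, with 20 of the 36 genes above 0 (55.6%, against 51.5% of all genes) and a median of 0.02 against 0.01 for all genes. The single Notch1 cKO library lay above both WT libraries for 12 genes (33.3%, against 24.3% of all genes) and below both for 10 (27.8%, against 26.1%). Ndufa4l2 was the 1 gene with an unadjusted p under 0.05, against 213 genes (1.85%). By role, the 7 lower glycolytic genes had a median of -0.19, with 5 below 0, and the 4 secreted and collagen-modifying genes had a median of 0.49, with 3 above 0. Adm had a log2 fold change of 0.69 (SE 0.39), Ankrd37 of 0.56 (SE 0.38), P4ha2 of 0.49 (SE 0.38), Ndrg1 of 0.49 (SE 0.33) and Vegfa of 0.48 (SE 0.36), each with a limma adjusted p of 1. Pgam1 and Eno1 were at the other end, at -0.47 (SE 0.32) and -0.44 (SE 0.35).

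In Notch2 cKO against Notch1 cKO, 1 of the 36 passed, Ndufa4l2 again, and it was lower, against 0.208% of all genes. As higher, 0 passed, against 0.277%, out of 56 genes called (0.485%). The Notch1 cKO library is the only one on its side, and WT enters the estimate of spread alone. Of the 36, 22 were above 0 (61.1%, against 61.8% of all genes) with a median of 0.25 against 0.12 for all genes. In 20 genes both Notch2 cKO libraries were above Notch1 cKO Em8 (55.6%, against 47.7% of all genes), and in 6 both were below (16.7%, against 25.2%). Slc2a1 had a log2 fold change of 1.0 (SE 0.38, limma adjusted p = 0.373) and Bnip3 of 0.90 (SE 0.34, limma adjusted p = 0.359). With Ndufa4l2 these were the 3 genes at an unadjusted p under 0.05, against 1000 genes (8.66%).

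**Figure D4:**
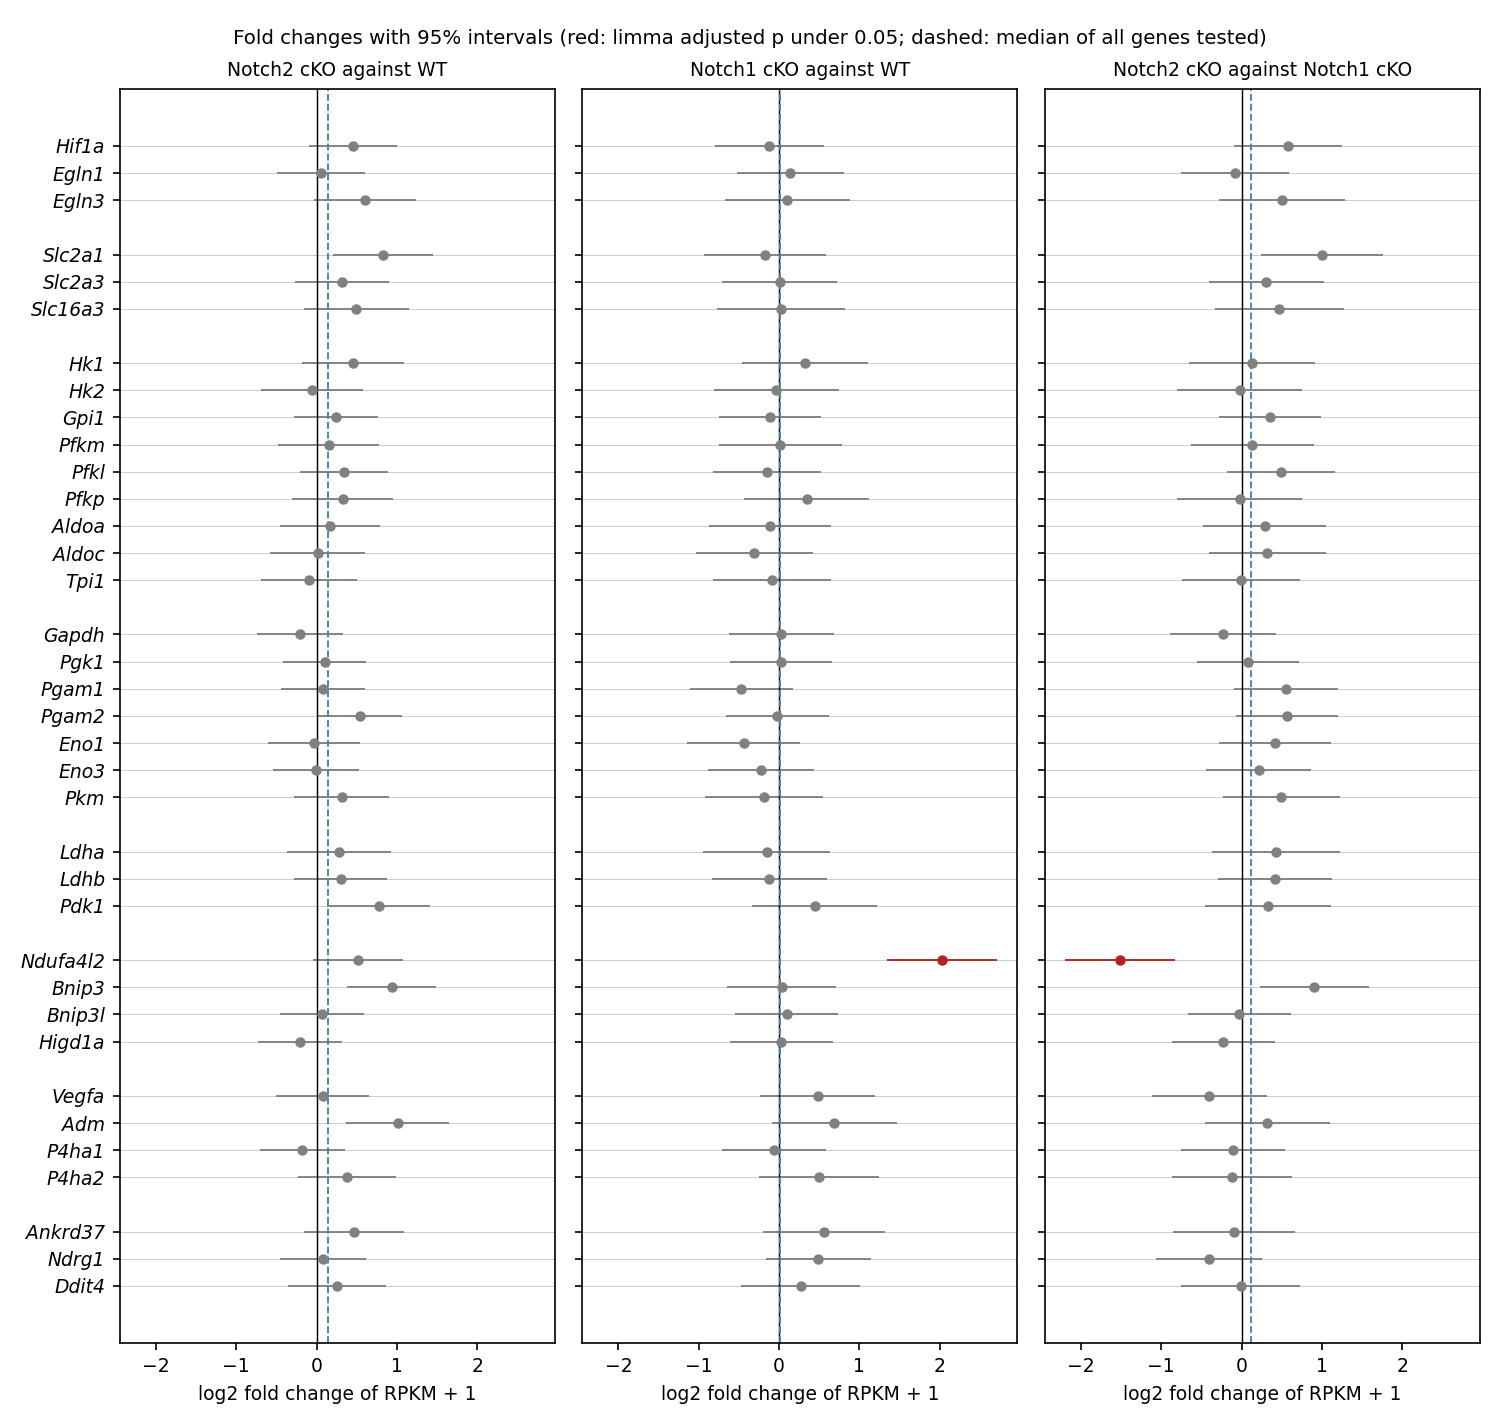
Points give the log2 fold change of RPKM + 1 for each of the 36 genes in the 3 comparisons, with 95% intervals from limma, red where the adjusted p is under 0.05, and a dashed line at the median of all genes tested. Ndufa4l2 is the only red point, at 2.03 in Notch1 cKO against WT and at -1.52 in Notch2 cKO against Notch1 cKO.

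Because RPKM is scaled by gene length, related genes can be set side by side within a library. Pgam2 made up 44.2% and 38.0% of the Pgam1 and Pgam2 sum in Notch2 cKO, 40.7% in Notch1 cKO, and 36% and 30.9% in WT, 7.61 percentage points higher in Notch2 cKO than in WT. Egln3 made up 19.1% and 17.4% of the Egln1 and Egln3 sum in Notch2 cKO, 12.1% in Notch1 cKO, and 13.4% and 11.1% in WT, a difference of 6.04 points. P4ha2 made up 20.3% and 21.2% of the P4ha1 and P4ha2 sum in Notch2 cKO, 21% in Notch1 cKO, and 11.8% and 18.4% in WT. Slc2a1 made up 89.5% and 91.8% of the Slc2a1 and Slc2a3 sum in Notch2 cKO, 87.0% in Notch1 cKO, and 88.2% and 89.1% in WT. For each of these 4 shares, out of 9 families, the Notch2 cKO libraries were above both WT libraries. The partner's share was then below, so the direction follows from which gene is named. By RPKM, both Notch2 cKO libraries stood above both WT libraries in 28.3% of all genes tested, and below in 9.44%. For each of the 4 shares a two-sided exact permutation test of 2 against 2 gave p = 0.333, the smallest it allows. Hk1 made up 47.9% and 67.4% of the hexokinase sum in Notch2 cKO, 54.9% in Notch1 cKO, and 39.1% and 56.4% in WT, with groups that overlapped. Pfkl made up between 69.2% and 77.3% of the phosphofructokinase sum and Pfkm between 17.1% and 22.6%. Muscle Eno3 took between 6.25% and 7.96% of the Eno1 and Eno3 sum. With Eno1b counted beside Eno1, a choice made after seeing the values, its share was 2.72% and 2.75% in Notch2 cKO, 3.04% in Notch1 cKO, and 2.85% and 3.08% in WT. Ldhb took between 1.27% and 1.43% of the Ldha and Ldhb sum.

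**Figure D5:**
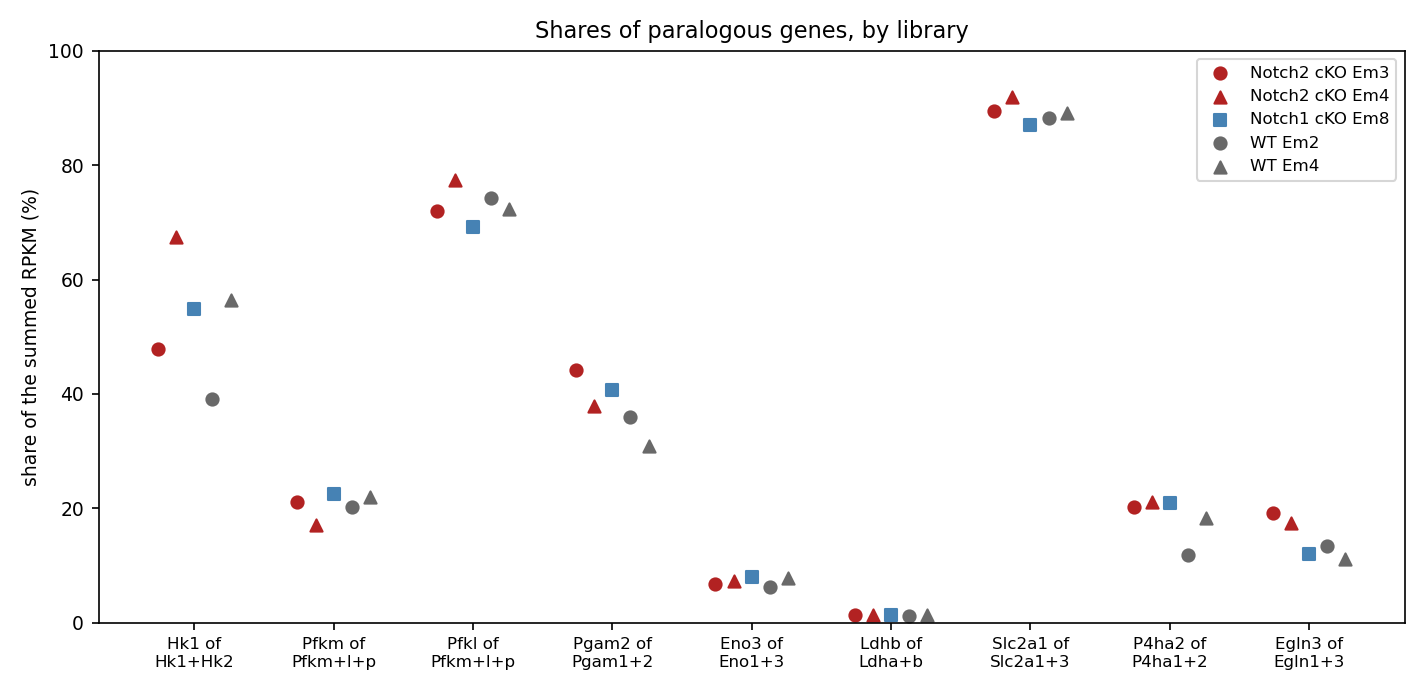
Each point is 1 library's share, in percent, of the summed RPKM of a family of related genes that is taken by the named gene, with Notch2 cKO in red, Notch1 cKO in blue and WT in grey. For Pgam2, Slc2a1, P4ha2 and Egln3 both Notch2 cKO points are above both WT points, and for Hk1 the groups overlap.

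The neighbouring parts of the pathway were read from lists of other genes. In Notch2 cKO against WT, 22 of 23 other glycolytic and pyruvate enzymes had positive log2 fold changes, against 68.1% of all genes, and none passed. Their median was 0.26 against 0.14 for all genes, and 0.13 against 0.00 for all genes with the length trend removed. By library, their median relative to all genes was -0.06 and 0.25 in Notch2 cKO and -0.15 in Notch1 cKO. It was -0.01 and -0.12 in WT, so Notch2 cKO Em3 lay within the WT range and only Em4 above it. Gpd1, the glycerol-phosphate dehydrogenase, had 3.98 and 4.59 RPKM in Notch2 cKO, 2.32 RPKM in Notch1 cKO, and 1.34 and 2.03 RPKM in WT (log2 fold change against WT 0.99, SE 0.32, limma adjusted p = 0.192). Pdha1, the catalytic subunit of pyruvate dehydrogenase, had 33.5 and 53.3 RPKM in Notch2 cKO, 20.9 RPKM in Notch1 cKO, and 30.5 and 27.1 RPKM in WT, and Dlat, another subunit of that complex, had 24.1 and 38.3 RPKM in Notch2 cKO, 17.1 RPKM in Notch1 cKO, and 18.4 and 23.2 RPKM in WT. Both were lowest in Notch1 cKO, and the Notch2 cKO log2 fold change against Notch1 cKO was 0.98 for Pdha1 (SE 0.33, limma adjusted p = 0.241) and 0.79 for Dlat (SE 0.34, limma adjusted p = 0.487). In Notch2 cKO against WT 12 of 14 glycogen genes were above 0, against 68.1% of all genes, with a median of 0.28. Of 8 pentose phosphate genes 5 were, with a median of 0.14. With the length trend removed these medians were 0.05 and 0.00, and that of all genes was 0.00. Relative to all genes the median of the glycogen genes was -0.06 and 0.34 in Notch2 cKO, -0.06 in Notch1 cKO, and -0.10 and 0.02 in WT, so Notch2 cKO Em4 alone stood above both WT libraries. No gene of these lists passed, with Gbe1, the glycogen branching enzyme, at 6.20 and 9.65 RPKM in Notch2 cKO, 4.22 RPKM in Notch1 cKO, and 3.90 and 4.70 RPKM in WT (log2 fold change against WT 0.73, SE 0.32, limma adjusted p = 0.569).

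Among 17 regulators of HIF, 11 were above 0 in Notch2 cKO against WT, with a median of 0.27 and none passing. This count lies below the 68.1% of all genes above 0. With the length trend removed the median was 0.03, against 0.00 for all genes. Wsb1, a ubiquitin ligase subunit, had 169 and 174 RPKM in Notch2 cKO, 126 RPKM in Notch1 cKO, and 102 and 118 RPKM in WT (log2 fold change against WT 0.65, SE 0.26, limma adjusted p = 0.491). Cited2, which competes with HIF1A for the coactivator p300, had 23.0 and 20.2 RPKM in Notch2 cKO, 21 RPKM in Notch1 cKO, and 11.5 and 15.7 RPKM in WT. All 3 knockout libraries were above WT for both genes. Of 32 other hypoxia targets, 25 were above 0 in Notch2 cKO against WT, against 68.1% of all genes, and none passed. Their median was 0.35 against 0.14 for all genes, and 0.21 against 0.00 for all genes with the length trend removed. At an unadjusted p under 0.05 there were 8, against 7.63% of all genes. By library, the median of these targets relative to all genes was -0.05 and 0.20 in Notch2 cKO and 0.01 in Notch1 cKO. It was -0.06 and -0.11 in WT, so Notch2 cKO Em3 lay close to WT Em2. The 1 gene of these lists that passed anywhere was Mt2, a metallothionein, at 151 and 130 RPKM in Notch2 cKO, 342 RPKM in Notch1 cKO, and 184 and 98.8 RPKM in WT. Like Ndufa4l2 it was highest in the Notch1 cKO library. Against that library, Mt2 fell in Notch2 cKO by 1.28 (SE 0.33, limma adjusted p = 0.047), a call lost when Notch2 cKO Em3 (adjusted p = 0.149) or Notch2 cKO Em4 (0.795) was left out. As a comparison outside the pathway, 12 of 25 oxidative phosphorylation genes were above 0 in Notch2 cKO against WT, against 68.1% of all genes. Their median was -0.02 against 0.14 for all genes, and -0.02 against 0.00 with the length trend removed. This list thus lay below all genes and is not a level baseline.

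Fold changes also followed gene length, with a Spearman's rho across genes of 0.248 in Notch2 cKO against WT. By pair of libraries, rho was 0.457 for Notch2 cKO Em3 minus WT Em2 and 0.2998 for Notch2 cKO Em4 minus WT Em2. Against WT Em4 it was 0.025 and -0.060, and WT Em2 minus WT Em4 gave -0.483. The trend in this comparison thus lay mainly in the pairs with WT Em2, and its cause was not tested. The median length of the 36 was 2168.5 bases, against 2619 for all genes tested. With the trend removed, the Notch2 cKO against WT median was 0.07 for the 36 and 0.00 for all genes.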

How the data were processed

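Total RNA of sorted cells was amplified with a low-input SMART-Seq v4 kit and sequenced from both ends, per the labels' protocols. The authors deposited 1 table of RPKM values for the 5 libraries. Genome build mm10 and bcl2fastq 2.20.0 appear in the submitters' processing notes. The sources used here name no aligner, counter or annotation. Rows without a gene name (1306, between 2.19% and 3.07% of a library's summed RPKM) were left out. Columns carry a group and a tag but no replicate number, so each was assigned to its group.

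Tests were run on the genes averaging at least 1 RPKM, on log2(RPKM + 1), a scale that understates changes of low genes, with limma 3.58.1 in R 4.3.3 (lmFit, eBayes with trend, all 5 libraries, 1 mean per group). Two-sided p-values were Benjamini-Hochberg adjusted over all 11543 genes, with 0.05 as threshold. The fit had 2 residual and 103.8 prior degrees of freedom, so the spread is mostly pooled across genes. Whole reads were recovered from the RPKM steps: 98.4% of 4828 low genes had a whole length within 0.02 bases, and recovered reads made up 99.3% of each library total. Reads carry no molecular identifiers, so read numbers cover counting error only. Limma voom on these reads was an alternative. It called 1 gene in Notch2 cKO against WT, 3 in Notch1 cKO against WT and 14 in Notch2 cKO against Notch1 cKO. The script was tested on simulated data.

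The genes named are the 36, and of the other pathway lists the genes past the threshold or else those of smallest p, besides the most abundant markers of other cells and the targeted genes. The 36 genes and the lists were chosen with earlier results of these data known. Rpia, Rpe and Tkt of the pentose phosphate list, Pygm and Gys1 of the glycogen list and Cul2 of the HIF list were among those of smallest p and did not pass. Gene positions come from GENCODE M21 (GRCm38), matched by symbol for 24654 of 25873 named rows; the authors may have used another annotation. Promoters are from RefSeq. Alternatives were other pseudocounts, filters, scalings, a length correction, the digits as a term, 2 groups only, voom and leaving out each library.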

Additional observations from a re-analysis of the deposited data

Results flagged for a closer look

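A difference between the 2 contrasts with WT is the Notch2 cKO against Notch1 cKO test given above, since WT cancels out. Ndufa4l2 differed by that test, which adds no separate evidence here. Its change in Notch2 cKO was 0.51 and in Notch1 cKO 2.03 on the log2(RPKM + 1) scale, and the difference, Notch2 cKO minus Notch1 cKO, was -1.52 (SE 0.35, limma adjusted p = 0.0148). Over 15 other settings the difference ran from -2.04 to -1.0, and it passed in 9 of them. The direction rests on 1 Notch1 cKO library. For the metallothionein gene Mt2 the same difference was -1.28 (limma adjusted p = 0.0473), passing in 4 of 15 other settings, and for the targeted gene Notch1 it was 1.72 (limma adjusted p = 0.0148), passing in 9 of 15. None of the other genes among the 36 differed between the knockouts at that threshold.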

How the results depend on the processing

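No paired analysis was possible because the column names carry no replicate number. The digits tie some libraries of different groups but not WT Em2, whose digits were read as those of the Em4 libraries when the digits were a term. In Notch2 cKO against WT that fit gives the fold changes of leaving out Notch2 cKO Em3. In Notch2 cKO against Notch1 cKO it gives those of leaving out Notch2 cKO Em4, so it is no separate alternative in either. In Notch1 cKO against WT it only shifts each fold change by the difference between the 2 Notch2 cKO libraries. That shift rests on these libraries alone, and takes Ndufa4l2 from 2.03 to 3.07. In Notch2 cKO against WT, where 62 were called (41 higher, 21 lower), the count was 0 with no filter (1050 at an unadjusted p under 0.05), 33 with a mean of at least 5 RPKM (14 higher, 19 lower), 27 with median-of-ratios scaling (14 higher, 13 lower), 31 with the same summed RPKM (29 higher, 2 lower; median of all genes 0.28), 4 with quantile normalization, 1 with the length trend removed and 1 with voom. Leaving out 1 library gave 13 (without WT Em2) to 287 (without WT Em4; 52 higher and 235 lower, so that most were lower), with 39 without Notch2 cKO Em4. In Notch1 cKO against WT, where 8 were called, the count was 15 with a pseudocount of 0.1, 0 with no filter (301 unadjusted), 3 with the same summed RPKM, 1 with quantile normalization, 0 with the length trend removed (291 unadjusted), 3 with voom, 29 with the digits as a term, and 1 (without WT Em4) to 5 (without WT Em2 or either Notch2 cKO library) leaving out 1 library. In Notch2 cKO against Notch1 cKO, where 56 were called (32 higher, 24 lower), it was 0 with no filter (983 unadjusted), 32 with median-of-ratios scaling (14 higher, 18 lower), 25 with the same summed RPKM (18 higher, 7 lower), 13 with quantile normalization (5 higher, 8 lower), 0 with the length trend removed (910 unadjusted), 14 with voom (5 higher, 9 lower), 31 with the digits as a term, and 35 (without Notch2 cKO Em4) to 67 (without WT Em4; 25 higher, 42 lower) leaving out 1 library. With only those groups it was 57 (21 higher, 36 lower).

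Of the 36 genes, none was called in Notch2 cKO against WT under any setting. In Notch1 cKO against WT the 1 call, Ndufa4l2, fell to 0 with no filter (adjusted p = 1), quantile normalization (0.0906) and the length trend removed (0.593), at log2 fold changes of 2.03, 2.02 and 2.0, and to 0 to 1 leaving out 1 library. Over 15 settings its adjusted p ran from 3e-05 to 1, and 10 passed. In Notch2 cKO against Notch1 cKO the 1 call fell to 0 with no filter (0.86), the same summed RPKM (0.162), quantile normalization (0.0928), the length trend removed (0.493) and voom (0.134), and to 0 to 1 leaving out 1 library. The cause of these changes was not tested.

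The median of the 36 minus that of all genes was 0.127 in Notch2 cKO against WT, 0.263 with the digits as a term, and -0.036 to 0.263 leaving out 1 library. It was 0.011 in Notch1 cKO against WT, 0.197 with the digits as a term and -0.048 to 0.049 leaving out 1 library, and 0.133 in Notch2 cKO against Notch1 cKO, -0.027 with the digits as a term and -0.027 to 0.256 leaving out 1 library. Adding the copies of Eno1, Gapdh, Bnip3l and Aldoa, chosen after seeing the data, gave no call, but turned the sign for Eno1 in Notch2 cKO against WT (0.11 with copies, -0.03 without) and for Bnip3l in Notch1 cKO against WT (-0.18 with, 0.10 without) and in Notch2 cKO against Notch1 cKO (0.31 with, -0.03 without).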
